A study of Rattus norvegicus with 10 samples.

Results

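The vascular endothelial growth factor (VEGF) system was examined in the developing rat retina through 8 genes, the ligand genes Vegfa, Vegfb, Vegfc and Pgf, the receptor genes Flt1 and Flt4, and the co-receptor genes Nrp1 and Nrp2. They were taken by name from the 14324 genes that had a probe set with a single gene symbol on the array. Each of the 8 had exactly 1 such probe set. Kdr, which encodes the main signalling receptor for VEGF-A, had 0 singly named probe sets and was not analysed here, and Vegfd, which had 1, was not among the genes chosen.

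Whole retinas were taken at postnatal day 3 from rats of the strains Sprague Dawley (SD) and Fischer 344 (F344). The exposed litters had entered an oxygen chamber within 12 hours of birth and alternated every 24 hours between 80% and 21% oxygen, a treatment that precedes oxygen-induced retinopathy, a rodent counterpart of retinopathy of prematurity. The groups were SD in cyclic hyperoxia (2 arrays), SD in room air (3 arrays), F344 in cyclic hyperoxia (3 arrays) and F344 in room air (2 arrays), with room-air rats of the same age as controls. Each array held total RNA pooled from 3 rats of 2 litters, so the spread between arrays is a spread between pools and not between animals. The labels name no transgene and no drug. SD is an outbred stock and F344 an inbred strain, and as background SD rats are regarded as prone and F344 rats as resistant to this retinopathy.

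VEGF-A is released by retinal astrocytes and neurons in need of oxygen and guides the growing vessels of the newborn retina across its surface. It signals in endothelial cells through the receptor encoded by Kdr, while the product of Flt1 binds VEGF-A, VEGF-B and placental growth factor tightly and acts largely as a trap. VEGF-C acts through the product of Flt4, which in the retina marks sprouting vessels, and the neuropilins bind VEGF ligands as well as class 3 semaphorins. The Vegfa gene is a classic target of the hypoxia-inducible factors, and high oxygen is known to lower its transcript in the neonatal retina.

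Values are log2 expression values, given to 1 decimal, so a difference of 1 is a doubling of signal. Array medians lay between 5.9 and 6. Markers of retinal cells were well represented, with Crx, a photoreceptor factor, between 10.7 and 11.2, Sfrp2, made by progenitors, between 9.9 and 10.4, and Rbpms, of ganglion cells, between 7.9 and 8.6. The mean of 4 measured lens markers varied between pools of a group, from 4.925 to 6.05 in SD room air but only from 5.125 to 5.15 in SD hyperoxia. For 5 measured pigment epithelium markers the mean ran from 6.54 to 7.04 in SD room air. Of 10 endothelial markers listed, 8 were measured, and their values lay between 4.4 (the lowest value of Tek) and 6.1 (the highest of Cldn5). The first principal component set pool 3 of SD in room air (36.41) and pool 3 of F344 in hyperoxia (30.08) at one end, with the remaining 8 arrays all at -1.765 or less. The design text says that 1 array was added to each of these groups after the first 8 were seen. That the added arrays are the ones numbered 3 was inferred from the numbering. Some values with a term for these arrays, or without them, are given beside the results for Vegfa, Vegfb, Pgf, Flt1 and Nrp1. All p-values come from limma, fitted to all probe sets on the 10 arrays with a mean for each group, and adjusted p-values are by the Benjamini-Hochberg method over all 27342 probe sets, with a threshold of 0.05. Intervals are 95% intervals of the log2 difference, not adjusted for the number of genes.

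The promoters of Vegfa, Flt1 and Pgf are shown as examples from the 8 genes. Each window runs from 250 bases before to 50 bases after the start of transcription, 5′ to 3′ on the gene's strand, from RefSeq on the assembly GRCr8, and all 8 genes were found there, Vegfa with 2 listed starts, of which the upstream one is printed. Capitals mark GGGCGG in either orientation, the box bound by Sp1, for which the Vegfa promoter is well known.
Vegfa (chr9:22452604-22452903, plus strand): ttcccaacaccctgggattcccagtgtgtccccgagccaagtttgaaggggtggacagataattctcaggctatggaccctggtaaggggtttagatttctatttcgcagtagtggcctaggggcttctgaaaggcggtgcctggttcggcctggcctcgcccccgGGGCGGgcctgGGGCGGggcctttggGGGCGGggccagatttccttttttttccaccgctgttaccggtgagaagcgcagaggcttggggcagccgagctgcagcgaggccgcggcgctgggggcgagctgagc
Flt1 (chr12:12333180-12333479, plus strand): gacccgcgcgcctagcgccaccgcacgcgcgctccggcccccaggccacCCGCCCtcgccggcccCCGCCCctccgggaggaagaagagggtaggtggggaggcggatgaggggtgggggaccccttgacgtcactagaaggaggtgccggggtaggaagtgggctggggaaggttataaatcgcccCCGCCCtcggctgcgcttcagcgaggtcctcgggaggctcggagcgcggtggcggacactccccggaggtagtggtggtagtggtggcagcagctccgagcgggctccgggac
Pgf (chr6:110557698-110557997, minus strand): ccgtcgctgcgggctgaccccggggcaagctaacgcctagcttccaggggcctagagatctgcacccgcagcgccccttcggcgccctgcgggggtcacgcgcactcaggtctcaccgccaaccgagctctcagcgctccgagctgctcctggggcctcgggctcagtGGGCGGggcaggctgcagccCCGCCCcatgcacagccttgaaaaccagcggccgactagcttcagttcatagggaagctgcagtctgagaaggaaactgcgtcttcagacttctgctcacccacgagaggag
Vegfa held GGGCGG 3 times on the gene's strand, beginning 84, 73 and 58 bases before the start. Flt1 held it 3 times and Pgf 2 times. Flt1 alone of the 8 also held TATAAA, the letters of the TATA box, beginning 75 bases before its start and apart from the GGGCGG boxes, against 14.2% of all windows. Of the 8 genes 6 held the box, the exceptions being Nrp1 and Nrp2, and 33.1% of all 33469 promoter windows did. ACGTG in either orientation, a form of the core letters bound by hypoxia-inducible factors, was in 0 of the 8 genes' windows and in 19.3% of all windows. Other forms of this core, such as GCGTG, were not searched for. The hypoxia response element known for Vegfa lies further upstream than these windows reach.

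Vegfa was the member that differed most with exposure, and it did so in SD. Its log2 values were 8.7 and 8.8 in the SD hyperoxia pools, against 10, 9.9 and 9.9 in the SD room-air pools. Both exposed pools lay at least 1.1 log2 units under every room-air pool, and the values within each group differed by no more than 0.1. The mean difference was -1.18 (SE 0.180, 95% interval -1.58 to -0.79), a 2.27-fold lower signal, with an unadjusted p = 2.5e-05 and an adjusted p = 0.0526, so that Vegfa missed the threshold by a small margin. It stood at place 8 among all genes by p in this comparison, in which 7 genes, 0.0489% of all, passed and all 7 were lower. With a term for the arrays numbered 3 the difference was -1.22 and passed (adjusted p = 0.0204), as it did at -1.18 with a trended, robust estimate of spread (adjusted p = 0.0301) and without F344 hyperoxia pool 2, which enters through the shared spread (adjusted p = 0.0112). Without both arrays numbered 3 the difference was -1.2 and did not pass (adjusted p = 0.391). Fitted on the SD arrays alone it did not pass either (adjusted p = 0.286). Leaving out each array in turn gave differences from -1.23 to -1.13 with adjusted p from 0.0112 to 0.969, and 1 of these 10 fits passed.

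**Figure D1:**
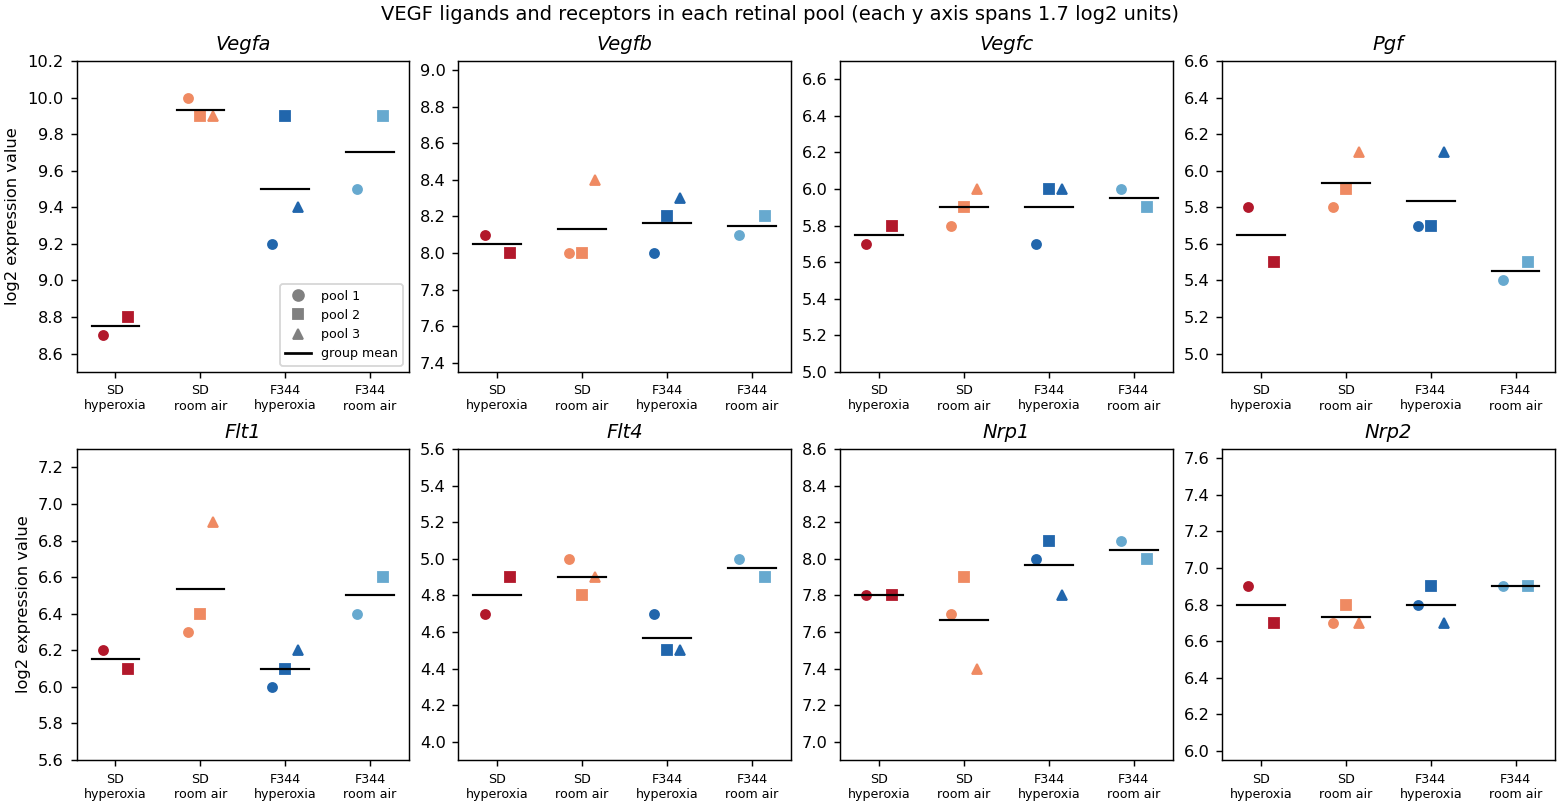
Log2 expression value of each VEGF gene in each of the 10 retinal pools, by strain and exposure; symbols give the pool number, black lines the group mean, and every panel spans the same range on its y axis. Vegfa lies at 8.7 and 8.8 in SD hyperoxia and at 9.2 or above in all other pools, and Flt1 is lower in hyperoxia than in room air in both strains.

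In F344 the Vegfa pools did not separate by exposure. The values were 9.2, 9.9 and 9.4 in the hyperoxia pools, against 9.5 and 9.9 in the room-air pools. Hyperoxia pool 2 was level with the higher room-air pool, and the other exposed pools lay under both controls. The difference was -0.20 (SE 0.180, interval -0.59 to 0.19, adjusted p = 0.921), and it ranged from -0.40 without F344 hyperoxia pool 2 to 0 without F344 room-air pool 2. Whether the strains differed was tested directly. The hyperoxia effect in SD minus that in F344 was -0.98 (SE 0.255, interval -1.54 to -0.43, unadjusted p = 0.00223, adjusted p = 0.651), so the difference between strains did not pass the threshold over all genes, and it came to -0.78 without F344 hyperoxia pool 2 and likewise without F344 room-air pool 1. In that comparison 0% of genes passed by limma, and 4.58% of all genes, Vegfa and Pgf among them, were on the lower side at an unadjusted p under 0.05. The groups ran, from high to low, SD in room air (9.93 ± 0.06, mean ± standard deviation of pools, n = 3), F344 in room air (9.70 ± 0.28, n = 2), F344 in hyperoxia (9.50 ± 0.36, n = 3) and SD in hyperoxia (8.75 ± 0.07, n = 2). Neighbours overlapped except for the last step, where the highest SD hyperoxia pool lay under the lowest F344 hyperoxia pool. Averaged over the strains the hyperoxia difference was -0.69 (SE 0.128, interval -0.97 to -0.41, adjusted p = 0.154), and it passed with the term for the arrays numbered 3 (-0.69, adjusted p = 0.0457) and without F344 hyperoxia pool 2 (-0.79, adjusted p = 0.0301). Within hyperoxia, SD minus F344 was -0.75 (SE 0.180, adjusted p = 0.151), every SD pool lying under every F344 pool, and in room air SD minus F344 was 0.23 (SE 0.180, adjusted p = 0.652).

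The other ligand genes differed less than Vegfa did. Vegfb, whose product binds the Flt1 receptor, had 8.1 and 8.0 in SD hyperoxia, against 8.0, 8.0 and 8.4 in SD room air. In F344 it had 8.0, 8.2 and 8.3 in hyperoxia, against 8.1 and 8.2 in room air. All 4 groups overlapped. The differences were -0.08 in SD (interval -0.39 to 0.22) and 0.02 in F344 (interval -0.29 to 0.32), and both signs turned with the term for the arrays numbered 3.

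Vegfc, the ligand of lymphatic and sprouting endothelium, had 5.7 and 5.8 in SD hyperoxia, against 5.8, 5.9 and 6.0 in SD room air. It had 5.7, 6.0 and 6.0 in F344 hyperoxia, against 6.0 and 5.9 in F344 room air. The differences were -0.15 in SD (SE 0.121, adjusted p = 0.829) and -0.05 in F344 (SE 0.121, adjusted p = 0.967), with overlapping groups in both strains.

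Pgf, which encodes placental growth factor, was the ligand gene with the largest differences of opposite sign in the strains, since those of Vegfb were both under 0.1 in size. It had 5.8 and 5.5 in SD hyperoxia, against 5.8, 5.9 and 6.1 in SD room air. In F344 it had 5.7, 5.7 and 6.1 in hyperoxia, against 5.4 and 5.5 in room air. In SD the exposed pools lay at or under the lowest control, while the F344 groups did not overlap, with every exposed pool above both controls. The differences were -0.28 in SD (SE 0.150, interval -0.61 to 0.04, adjusted p = 0.815) and 0.38 in F344 (SE 0.150, interval 0.06 to 0.71, adjusted p = 0.921), the second being 0.25 without F344 hyperoxia pool 3. The SD value ran from -0.43 without SD hyperoxia pool 1 to -0.13 without SD hyperoxia pool 2, and with the term for the arrays numbered 3 the values were -0.18 in SD and 0.28 in F344. Their difference, SD minus F344, was -0.67 (SE 0.212, interval -1.13 to -0.21, unadjusted p = 0.00824, adjusted p = 0.651) and -0.45 with the term for the arrays numbered 3, without passing in either fit. Pgf also differed between strains without exposure: SD minus F344 in room air was 0.48 (SE 0.150, adjusted p = 0.241), and the room-air pools of the strains did not overlap.

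**Figure D2:**
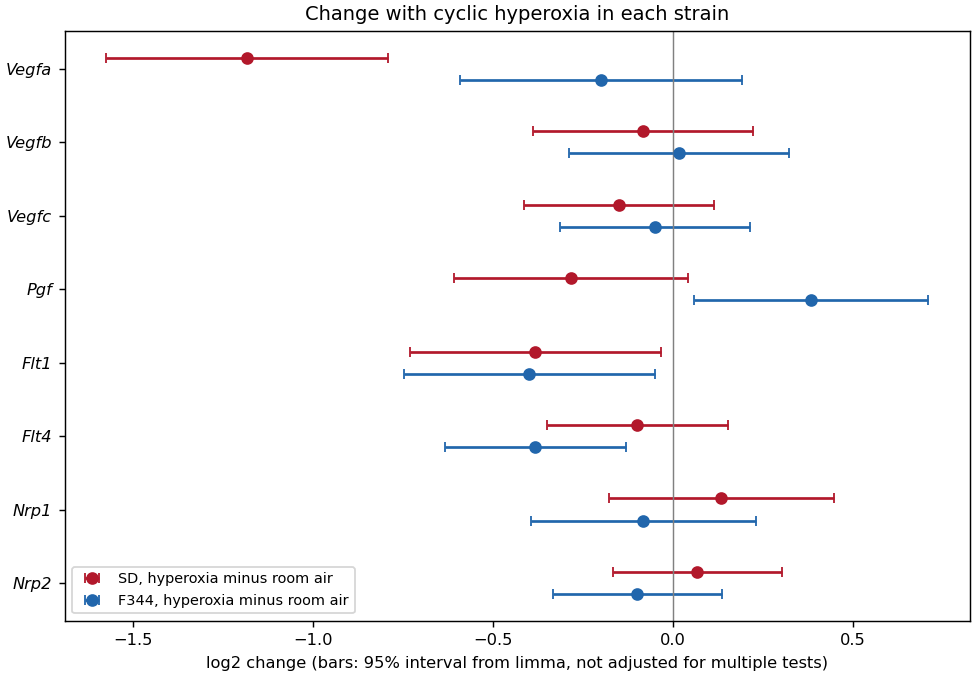
Log2 difference, hyperoxia minus room air, for each VEGF gene in SD (red, upper of each pair) and F344 (blue), with 95% intervals from limma that are not adjusted for multiple tests. Vegfa in SD stands at -1.18, all other differences lie between -0.40 and 0.38, and Flt1 lies near -0.4 in both strains.

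Flt1, the gene of the trapping receptor for VEGF-A, was lower under hyperoxia in both strains. Its values were 6.2 and 6.1 in SD hyperoxia, against 6.3, 6.4 and 6.9 in SD room air. In F344 they were 6.0, 6.1 and 6.2 in hyperoxia, against 6.4 and 6.6 in room air. Neither strain's groups overlapped, all 5 exposed pools lying under all 5 room-air pools. The differences were -0.38 in SD (SE 0.160, interval -0.73 to -0.03, adjusted p = 0.815) and -0.40 in F344 (SE 0.160, interval -0.75 to -0.05, adjusted p = 0.921). Averaged over the strains the difference was -0.39 (SE 0.113, interval -0.64 to -0.14, unadjusted p = 0.00467, adjusted p = 0.839), and the strains' effects differed by 0.02 with an interval of -0.48 to 0.51. The size in each strain moved with the arrays numbered 3. With a term for them Flt1 stood at -0.27 in SD (adjusted p = 0.710) and -0.52 in F344 (adjusted p = 0.496), and without both arrays at -0.20 in SD and -0.45 in F344, so that the difference between the strains' effects was 0.25 in each of these fits (adjusted p = 0.810 with the term and 0.751 without the arrays).

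Other genes of endothelial cells lay lower beside Flt1. All 8 measured endothelial markers lay lower under hyperoxia in both strains, with medians of -0.38 in SD and -0.32 in F344, against a median of 0 over all 14324 genes in each strain. Of all genes, 46% in SD and 48.2% in F344 lay below 0. By limma 0 of the 8 passed in either strain. At an unadjusted p under 0.05, 6 were lower in SD, against 2.95% of all genes, and 5 in F344, against 2.19%. Cd34, a surface glycoprotein of sprouting endothelium, stood at -0.82 in SD (SE 0.171, adjusted p = 0.304) and -0.42 in F344 (SE 0.171, adjusted p = 0.921). Cldn5, of the endothelial tight junction, stood at -0.58 in SD (SE 0.134, adjusted p = 0.441) and -0.37 in F344 (SE 0.134, adjusted p = 0.921). The mean of the 8 markers ranged from 4.86 to 4.98 in SD hyperoxia, against 5.14 to 5.56 in SD room air. In F344 it ranged from 4.93 to 5.06 in hyperoxia, against 5.14 to 5.39 in room air. In every pool this mean lay under the array median, where small differences are hard to measure. Pecam1 and Eng had no singly named probe set.

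Flt1 was also set against this marker mean in the same pool. The difference between Flt1 and the marker mean averaged 1.23 ± 0.01 in SD hyperoxia (standard deviation, n = 2) and 1.18 ± 0.16 in SD room air (n = 3). It averaged 1.12 ± 0.06 in F344 hyperoxia (n = 3) and 1.24 ± 0.04 in F344 room air (n = 2). In SD the exposed pools, at 1.23 and 1.24, lay within the range of the room-air pools, which ran from 1.03 to 1.34. In F344 the exposed pools, from 1.05 to 1.18, all lay under the room-air pools at 1.21 and 1.26, and this difference was not tested. In RNA of whole retinas, fewer endothelial cells and less RNA per endothelial cell cannot be told apart. Of 6 pericyte markers, all 6 also lay lower in SD, as did 46% of all genes, and in F344, as did 48.2%. Their medians were -0.28 in SD and -0.31 in F344, and 0 passed by limma. An unadjusted p under 0.05 was reached by 3 in SD, against 2.95% of all genes on the lower side, and by 5 in F344, against 2.19%.

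**Figure D3:**
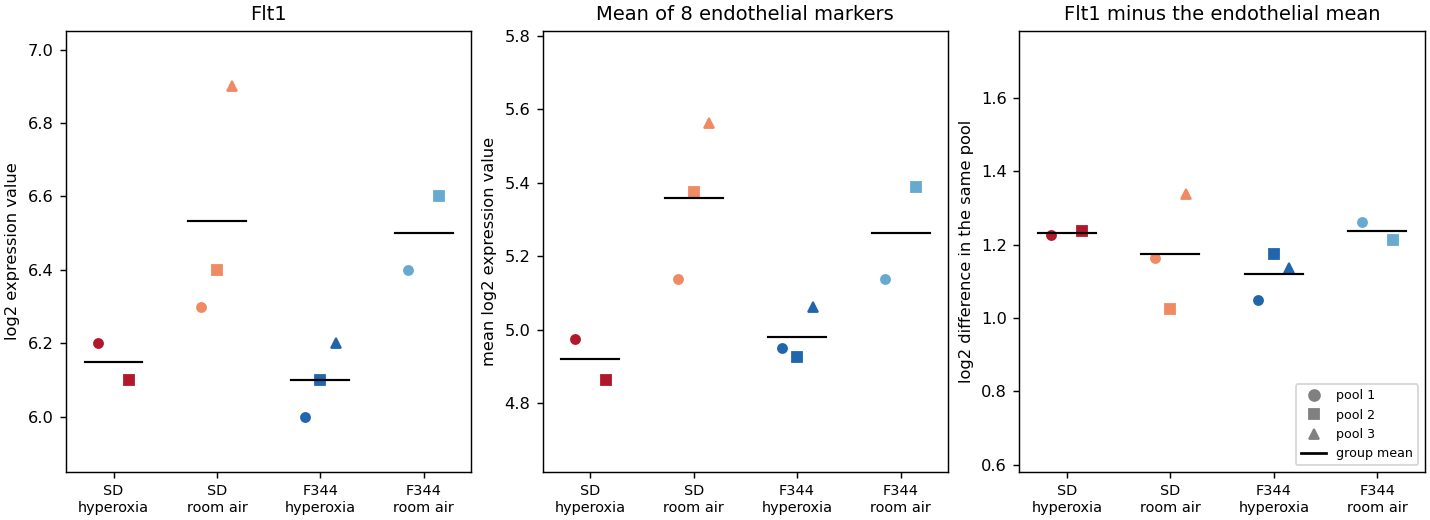
Flt1 (left), the mean of 8 endothelial markers (middle) and their difference in the same pool (right), all on log2 scales, for each of the 10 pools; black lines are group means and symbols the pool number. Flt1 and the marker mean both lie lower in hyperoxia in each strain, and their difference averages between 1.12 and 1.24 in every group.

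Flt4, the VEGF-C receptor gene, lay lower under hyperoxia in F344. In SD it had 4.7 and 4.9 in hyperoxia, against 5.0, 4.8 and 4.9 in room air, with overlap. In F344 it had 4.7, 4.5 and 4.5 in hyperoxia, against 5.0 and 4.9 in room air, without overlap. The differences were -0.10 in SD (SE 0.116, interval -0.35 to 0.15, adjusted p = 0.865) and -0.38 in F344 (SE 0.116, interval -0.64 to -0.13, unadjusted p = 0.00609, adjusted p = 0.921). The difference between these effects, SD minus F344, was 0.28 (interval -0.07 to 0.64, adjusted p = 0.665), so a strain difference was not shown. Relative to the mean of the 8 endothelial markers in the same pool, which lay lower under hyperoxia in both strains, Flt4 averaged -0.12 ± 0.22 in SD hyperoxia (standard deviation, n = 2) and -0.46 ± 0.28 in SD room air (n = 3). It averaged -0.41 ± 0.16 in F344 hyperoxia (n = 3) and -0.31 ± 0.25 in F344 room air (n = 2), and the groups overlapped in both strains. Flt4, Vegfc and Pgf had mean values below the median probe set, where small differences are hard to measure.

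The neuropilin genes showed no exposure difference beyond their spread. Nrp1, which has roles in vessels and in ganglion cell axons, had 7.8 and 7.8 in SD hyperoxia, against 7.7, 7.9 and 7.4 in SD room air. In F344 it had 8.0, 8.1 and 7.8 in hyperoxia, against 8.1 and 8.0 in room air. The differences were 0.13 in SD (interval -0.18 to 0.45) and -0.08 in F344 (interval -0.40 to 0.23), and in SD it was 0 without SD room-air pool 3. Between strains in room air, SD minus F344 was -0.38 (SE 0.144, unadjusted p = 0.0204, adjusted p = 0.341), the SD pools lying under both F344 pools, and -0.25 without SD room-air pool 3. In hyperoxia SD minus F344 was -0.17 (adjusted p = 0.898), and -0.28 with the term for the arrays numbered 3 (adjusted p = 0.433).

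Nrp2, the neuropilin of lymphatic and venous endothelium, was the least variable member and spanned 0.2 over all 10 pools. It had 6.9 and 6.7 in SD hyperoxia, against 6.7, 6.8 and 6.7 in SD room air. In F344 it had 6.8, 6.9 and 6.7 in hyperoxia, against 6.9 and 6.9 in room air. The differences were 0.07 in SD (interval -0.17 to 0.30) and -0.10 in F344 (interval -0.34 to 0.14). Its room-air pools in SD all lay under those in F344, by -0.17 on average (SE 0.108, adjusted p = 0.591), against rounding of all values to 0.1.

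Over the 8 genes, 0 passed by limma in any of the 6 comparisons made. At an unadjusted p under 0.05, 2 were lower in SD under hyperoxia (Vegfa and Flt1), against 2.95% of all genes. In F344, 2 were lower (Flt1 and Flt4), against 2.19% of all genes, and 1 was higher (Pgf), against 2.73%. Averaged over strains 3 were lower (Vegfa, Flt1 and Flt4), against 2.28%, while 0.0628% of all genes passed the adjusted threshold. The members whose groups did not overlap were these same genes in each strain, where 7.34% of all genes in SD and 6.32% in F344 were lower without overlap and 6.6% in F344 were higher. Of the 8, 6 lay below 0 in SD, as did 46% of all genes, and 6 in F344, as did 48.2%. The medians of the 8 were -0.13 in SD and -0.09 in F344, against 0 over all genes in both. In F344 0.00698% of all genes passed. Between strains in hyperoxia, where 0.475% of all genes passed, 1 member (Vegfa) was lower in SD at an unadjusted p under 0.05, against 3.22% of all genes, and without overlap, against 7.34%. Between strains in room air, where 0.552% of all genes passed, Nrp1 was lower in SD at an unadjusted p under 0.05 (4.51% of all genes) and Pgf higher (6.92%). Without overlap, Nrp1 and Nrp2 were lower (9.93% of all genes) and Pgf was higher (10.8%).

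The genes whose values followed Vegfa most closely over the pools were found by the root mean square difference of log2 values over the 10 arrays, each gene centred on its own mean. The nearest was P4ha1, a prolyl hydroxylase of collagen, at 0.120, followed by Pdk1, the kinase that holds pyruvate out of mitochondria, at 0.166, and the adenylate kinase gene Ak4 at 0.192. Next came Egln3, an oxygen-sensing prolyl hydroxylase, at 0.221, P4ha2 at 0.226, the glycolytic regulator Pfkfb3 at 0.241, Fam162a at 0.264 and the glycolytic enzyme Tpi1 at 0.269. The median over the other 14323 genes was 0.483, and a gene with a flat pattern would stand at 0.46. In SD all 8 lay lower under hyperoxia, by log2 differences between -0.75 (Tpi1) and -1.53 (Egln3). Pdk1 fell by 1.25 (adjusted p = 0.00798) and Fam162a fell by 1.02 (adjusted p = 0.0146) in SD, and the other 6 did not pass. In F344 they stood between -0.53 (Pdk1) and 0.17 (Pfkfb3), and 0 passed by limma. The likeness was chosen over the same pools, so these differences describe the pattern and add no separate evidence for that of Vegfa.

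**Figure D4:**
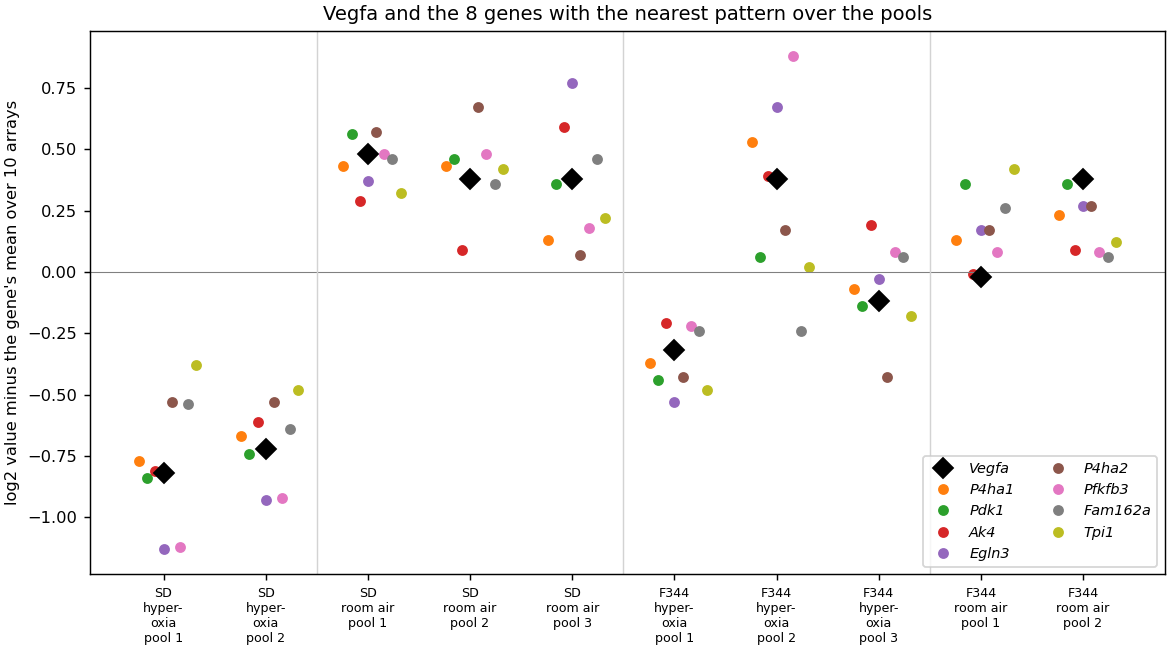
Log2 value of Vegfa (black diamonds) and of the 8 genes nearest to it in pattern (coloured points), each minus its own mean over the 10 arrays, for each pool. Vegfa lies at -0.82 and -0.72 in the SD hyperoxia pools, and F344 hyperoxia pool 2 stands above pools 1 and 3 for Vegfa and 7 of the other 8.

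F344 hyperoxia pool 2 stood highest of its group in most of these genes. Relative to its own mean over the arrays, Vegfa was at 0.38 in that pool, and at -0.32 and -0.12 in pools 1 and 3. Pfkfb3 was at 0.88 in pool 2, and at -0.22 and 0.08 in the others, and Egln3 at 0.67, with -0.53 and -0.03 in the others. Fam162a, at -0.24 in pool 2, was the one of the 8 that did not stand highest there. These genes were chosen for likeness to Vegfa over these same pools, so their values here are a description.

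The promoters of these 8 genes were searched for the same letters. ACGTG in either orientation was in 5 of the 8 windows (P4ha1, Pdk1, P4ha2, Pfkfb3 and Fam162a), against 19.3% of all windows, and in none of Ak4, Egln3 and Tpi1. The stretches of P4ha2, Pfkfb3 and Fam162a, where it lies before the start of transcription, are printed with ACGTG in either orientation in capitals.
P4ha2 (chr10:38743741-38743877, plus strand): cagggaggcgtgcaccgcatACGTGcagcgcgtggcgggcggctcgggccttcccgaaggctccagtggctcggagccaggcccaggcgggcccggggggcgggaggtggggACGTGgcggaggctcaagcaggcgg
Pfkfb3 (chr17:71944871-71944916, plus strand): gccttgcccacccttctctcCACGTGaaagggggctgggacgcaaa
Fam162a (chr11:78186200-78186244, plus strand): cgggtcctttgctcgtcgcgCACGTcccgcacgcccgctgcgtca
P4ha2 held it 2 times and Fam162a 1 time, and in Pfkfb3 matches on both strands overlapped in CACGTG. In P4ha1 and Pdk1 the letters lay after the start. A match of these letters is a description of the sequence and not evidence of binding.

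The genes that relay or shape VEGF signals were measured as 5 lists, none of which held a gene that passed by limma in any of the 6 comparisons. Of 43 intracellular relays listed 35 were measured, with medians of 0.03 in SD and -0.05 in F344 under hyperoxia, against 0 over all genes. The largest difference in SD was that of Map2k1, a kinase of the ERK cascade, at -0.47 (SE 0.114, adjusted p = 0.536), which stood at -0.30 in F344 (SE 0.114, adjusted p = 0.921). Hspb1, a small heat shock protein downstream of p38, stood at -0.33 in SD (SE 0.161) and 0.27 in F344 (SE 0.161). Of the relays, 1 in SD and 2 in F344 were lower at an unadjusted p under 0.05, against 2.95% and 2.19% of all genes, and 0 were higher.

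Partners of the neuropilins and regulators of ligand availability had medians near 0. Of 16 semaphorins, plexins and adhesion partners 12 were measured, with medians of 0.03 in SD and -0.08 in F344. Among them 0 in SD and 2 in F344 were lower at an unadjusted p under 0.05, against 2.95% and 2.19% of all genes. Sema3a, a repellent that competes for Nrp1, stood at 0.25 in SD (SE 0.189) and 0.02 in F344. Sema3e stood at -0.20 in SD (SE 0.108) and -0.13 in F344. Of 17 matrix and protease genes that hold or release VEGF ligands 10 were measured, with medians of -0.03 in SD and -0.07 in F344. At an unadjusted p under 0.05, 1 was lower in SD, against 2.95% of all genes, and 1 in F344, against 2.19%. Averaged over the strains 3 were lower at that level, against 2.28% of all genes. Sparc, a matrix protein that binds VEGF-A, stood at -0.42 in SD (SE 0.123, unadjusted p = 0.00539, adjusted p = 0.815) and -0.13 in F344. Serpinf1, which encodes the antiangiogenic factor PEDF, stood at -0.23 in SD and -0.13 in F344.

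Genes known to respond to VEGF in endothelium, among them the members Flt1, Pgf and Nrp2, had 21 of 23 measured and a median of -0.10 in each strain, with 17 below 0 in SD, against 46% of all genes, and 14 in F344, against 48.2%. At an unadjusted p under 0.05, 1 was lower in SD, which was the member Flt1 itself, against 2.95% of all genes. In F344 2 were lower, Flt1 among them, and 2 higher, Pgf among them, against 2.19% and 2.73% of all genes. All 20 regulators of Vegfa listed were measured, with medians of -0.05 in SD and -0.07 in F344. In SD 4 were lower at an unadjusted p under 0.05, against 2.95% of all genes. In F344 0 were lower and 1 was higher, against 2.19% and 2.73% of all genes. Egln3, whose own transcript is induced by hypoxia-inducible factors, stood at -1.53 in SD (SE 0.259, adjusted p = 0.114) and -0.18 in F344. Nfe2l2, which encodes the antioxidant regulator NRF2, stood at -0.47 in SD (SE 0.149, adjusted p = 0.815) and 0.28 in F344 (SE 0.149, adjusted p = 0.921).

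Markers of cells that make or border on the VEGF supply were set beside the ligands. Of 6 astrocyte markers 5 were measured, with medians of -0.13 in SD and -0.02 in F344, and 0 passed by limma. Pdgfra, a marker of the astrocyte precursors that lead the vessels, stood at -0.23 in SD (SE 0.122, adjusted p = 0.815) and -0.53 in F344 (SE 0.122, unadjusted p = 8.78e-04, adjusted p = 0.921). The astrocyte mean ranged from 5.16 to 5.22 in SD hyperoxia, against 5.28 to 5.38 in SD room air. In F344 it ranged from 5.2 to 5.26 in hyperoxia, against 5.28 to 5.36 in room air. The groups were thus apart by little in both strains, and the part of cell numbers in the Vegfa values was not tested. Of 7 measured ganglion cell markers, 5 stood below 0 in SD (median -0.35), as did 46% of all genes. In F344 2 stood below 0 (median 0.10), as did 48.2% of all genes, and 0 passed by limma in either strain.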

How the data were processed

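Total RNA of 10 retinal pools was hybridised to 1-colour Affymetrix gene arrays, 1 array a pool. The authors deposited log2 expression values rounded to 1 decimal, made with RMA in Partek 6.4 per the submitters' processing notes. RMA quantile-normalises arrays and can compress differences. Read depth does not apply to arrays, and the small number of arrays limits the precision. Of 27342 probe sets, 15097 had a single gene symbol in the platform table, 323 several and 11922 none, and the first group covers 14324 genes. Where a gene had several probe sets, the one with the highest mean was used. limma 3.58.1 in R 4.3.3 was fitted to the deposited values with a mean for each group (6 residual degrees of freedom), two-sided, and tested on simulated data. The 45 pairs of arrays included 0 with identical values. Of 13 same-numbered pairs of arrays 4 correlated over 0.1 in their deviations from group means, which did not meet the rule for pairing (every pair), so numbers were not used as pairs. The labels call pools of different rats biological replicates. The members and gene lists were chosen with earlier results of these data known. The genes named from each list are among the 2 with the largest absolute difference in SD, and the retinal markers whose levels are given were chosen after their values were seen. Alternatives varied the spread estimate, normalisation, probe-set choice, a filter on dim probe sets, the arrays used and terms for array number.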

Additional observations from a re-analysis of the deposited data

Results flagged for a closer look

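Pgf drew attention because its values under hyperoxia lay on opposite sides of the room-air mean in the strains. Both exposed SD pools lay below the SD room-air mean and all 3 exposed F344 pools lay above the F344 room-air mean. The hyperoxia effect in SD minus that in F344 was -0.67 (SE 0.212, n = 2 and 3 pools in SD and 3 and 2 in F344), with an unadjusted p = 0.00824 and a limma adjusted p = 0.651 by Benjamini-Hochberg over all probe sets, so the difference did not pass. It ranged from -0.82 without SD hyperoxia pool 1 to -0.52 without SD hyperoxia pool 2. With 2 or 3 pools in each group, single outlying pools were not tested for.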

How the results depend on the processing

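Over 48 single-gene results, 830 of 878 comparisons with an alternative kept their direction and their side of the threshold. A value of exactly 0 in either fit was counted as kept. The difference between the strains' effects on Nrp1, for example, went from 0.22 to 0 with the term for the arrays numbered 3, with a replicate block and without both arrays. Vegfa in F344 went from -0.20 to 0 without F344 room-air pool 2. Vegfa alone came to pass, and in SD it did not pass without both arrays numbered 3 (-1.2, adjusted p = 0.391). The count of members passing in SD, 0 as reported, was 1 with the trended, robust spread (Vegfa -1.18, adjusted p = 0.0301), with the term for the arrays numbered 3 (-1.22, 0.0204) and with a replicate block (-1.22, 0.0218), and 0 to 1 leaving out each array (Vegfa -1.23 to -1.13, adjusted p 0.0112 to 0.969). For the average over strains the count was 1 with the array term (-0.69, 0.0457) and the replicate block (-0.69, 0.0321), and 0 to 1 leaving out each array (-0.79 to -0.59). Between strains in hyperoxia it was 1 with the replicate block (-0.78, 0.0484). The numbers did not meet the rule for pairing, since 4 of 13 same-numbered pairs of arrays correlated over 0.1 in their deviations (range -0.0733 to 0.644), so the block serves as a check only. The 3 pairs between F344 in hyperoxia and SD in room air were all over it (0.314, 0.397 and 0.644). Both groups enter the difference between the strains' effects and the average over strains, and the standard errors reported for these treat the arrays as independent. With the block the difference between the strains' effects was -1.05 for Vegfa and -0.45 for Pgf, and neither passed.

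Reversals concerned differences near 0. Vegfb turned to 0.0167 in SD with the array term or block and 0.05 without both arrays numbered 3, to -0.0833 in F344 with the term or block, -0.05 without both arrays and -0.0083 with repeated quantile normalisation, and to 0.10 in the difference between strains in these 3 fits. Nrp1 in F344 turned to 0.025 with the term or block, Nrp2 averaged over strains to 0.0125 with median centring, and Flt1 between strains in room air to -0.0833 with the term or block and -0.15 without both arrays. Leaving out each array gave ranges across 0 for Vegfb in SD (-0.15 to 0.05), F344 (-0.05 to 0.10), the difference between strains (-0.18 to 0.0333), the average (-0.0667 to 0.0333) and room air (-0.15 to 0.05). The same held for Nrp2 in SD (-0.0333 to 0.17) and the average (-0.0667 to 0.0333), Vegfc in F344 (-0.10 to 0.05), Pgf averaged (-0.025 to 0.125), Nrp1 averaged (-0.0417 to 0.0833), and Flt1 in the difference between strains (-0.10 to 0.20) and in room air (-0.15 to 0.15). Nrp2 between strains in hyperoxia was 0 as reported and ran from -0.10 to 0.10. The cause was not tested.

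Counts over all genes, 7 in SD and 9 averaged over strains, came to 17 and 30 with the array term, 14 and 26 with the block, 1 and 2 without both arrays, and 1 to 9 and 1 to 20 leaving out each array. On the arrays of the compared groups alone the SD count was 0, and that alternative was not run for comparisons that use all groups. Vegfc, Pgf and Flt4 were below the filter on dim probe sets and have no value there. Rounding to 0.1 limits what can be said of differences near 0, and RMA can compress differences of any size.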
